A study of Mus musculus with 4 samples.

Results

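The 50 genes described here make the DNA of the dividing cell: they recognize and license replication origins, unwind the helix, copy both strands, supply deoxynucleotides and place the copy in chromatin. They were chosen by symbol, from a list of origin, helicase, polymerase, clamp and nucleotide synthesis genes, and all 50 were found among the 21830 genes of the tables. Choosing them used no measured value, but it was done with earlier results of these data known. RNA was sequenced from retinas of transgenic mice (strain FVB/N per the labels). In these mice a destabilized EGFP is driven by the promoter of Hes1, which encodes a transcription repressor and is activated by Notch signaling. Cells were dissociated with trypsin and sorted into EGFP-positive cells (pHes1_EPCs) and EGFP-negative cells (pHes1_ENCs) at postnatal day 1 (P1) and postnatal day 4 (P4). Each of the 4 combinations is represented by 1 library, all groups carried the transgene, and the labels do not state whether animals were pooled. With no replicates, no test between groups was run, and every difference below compares libraries.

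In a cell that will divide, the origin recognition complex (ORC) marks origins, CDC6 and CDT1 load the MCM helicase on them, and geminin blocks loading again until the division is done. Kinases and the GINS complex then start the helicase, primase and the polymerases copy the strands behind it, and the clamp PCNA holds the polymerases on DNA. Many of these genes are known targets of E2F transcription factors and are transcribed as a cell passes from G1 into S phase, whereas ORC subunits are also present in resting cells. In the retina of the first postnatal days, late progenitors still divide while newborn rods and other neurons have left the cycle, and Müller glia arise last.

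Levels are gene FPKM, which are divided by transcript length, so that levels of different genes can be set side by side. A difference is the difference of log2(FPKM + 1), and a gene is called higher or lower in a comparison when it differs by more than 1, that is by more than 2-fold. A gene that is higher in pHes1_EPCs by this rule is called EPC-high. Because of the added 1, this difference understates the change of genes with low FPKM. A ratio of FPKM is therefore given too, with the range that follows from the 95% intervals of Cufflinks, which cover counting error only. For several genes the deposited FPKM lay above its own interval. Pcna in P1 pHes1_EPCs was at 428 with an interval of 353.6 to 371.3, and Rpa3 in P1 pHes1_ENCs at 26.3 with 16.3 to 21.2. Counts and ranges built on the intervals are therefore approximate. In bulk RNA, fewer cells of a type and less RNA per cell cannot be told apart.

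The replication genes were most abundant in P1 pHes1_EPCs and least abundant in P4 pHes1_ENCs. Their FPKM summed to 2739 in P1 pHes1_EPCs, 1212 in P4 pHes1_EPCs, 699.8 in P1 pHes1_ENCs and 422.1 in P4 pHes1_ENCs, which was 0.929%, 0.326%, 0.252% and 0.139% of the FPKM of all genes. The median FPKM of the 50 genes was 39.7, 21.9, 12.8 and 5.88 in the same order. Of the 50 genes, 49 had an FPKM of 10 or more in P1 pHes1_EPCs, 41 in P4 pHes1_EPCs, 33 in P1 pHes1_ENCs and 17 in P4 pHes1_ENCs. This order of the 4 libraries, P1 pHes1_EPC, P4 pHes1_EPC, P1 pHes1_ENC and P4 pHes1_ENC from high to low, held for 43 of 50 genes one by one, beside 8.69% of all genes and 12.5% of the 8403 genes that reached an FPKM of 10 in 1 library or more (called expressed genes below). The same 43 genes had their highest level in P1 pHes1_EPCs and their lowest in P4 pHes1_ENCs, beside 12.9% of all and 15.2% of expressed genes. The other 7 were the ORC subunits Orc2, Orc3, Orc4 and Orc5, the clamp loader subunit Rfc2 and the single-strand binding subunits Rpa1 and Rpa3.

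**Figure D1:**
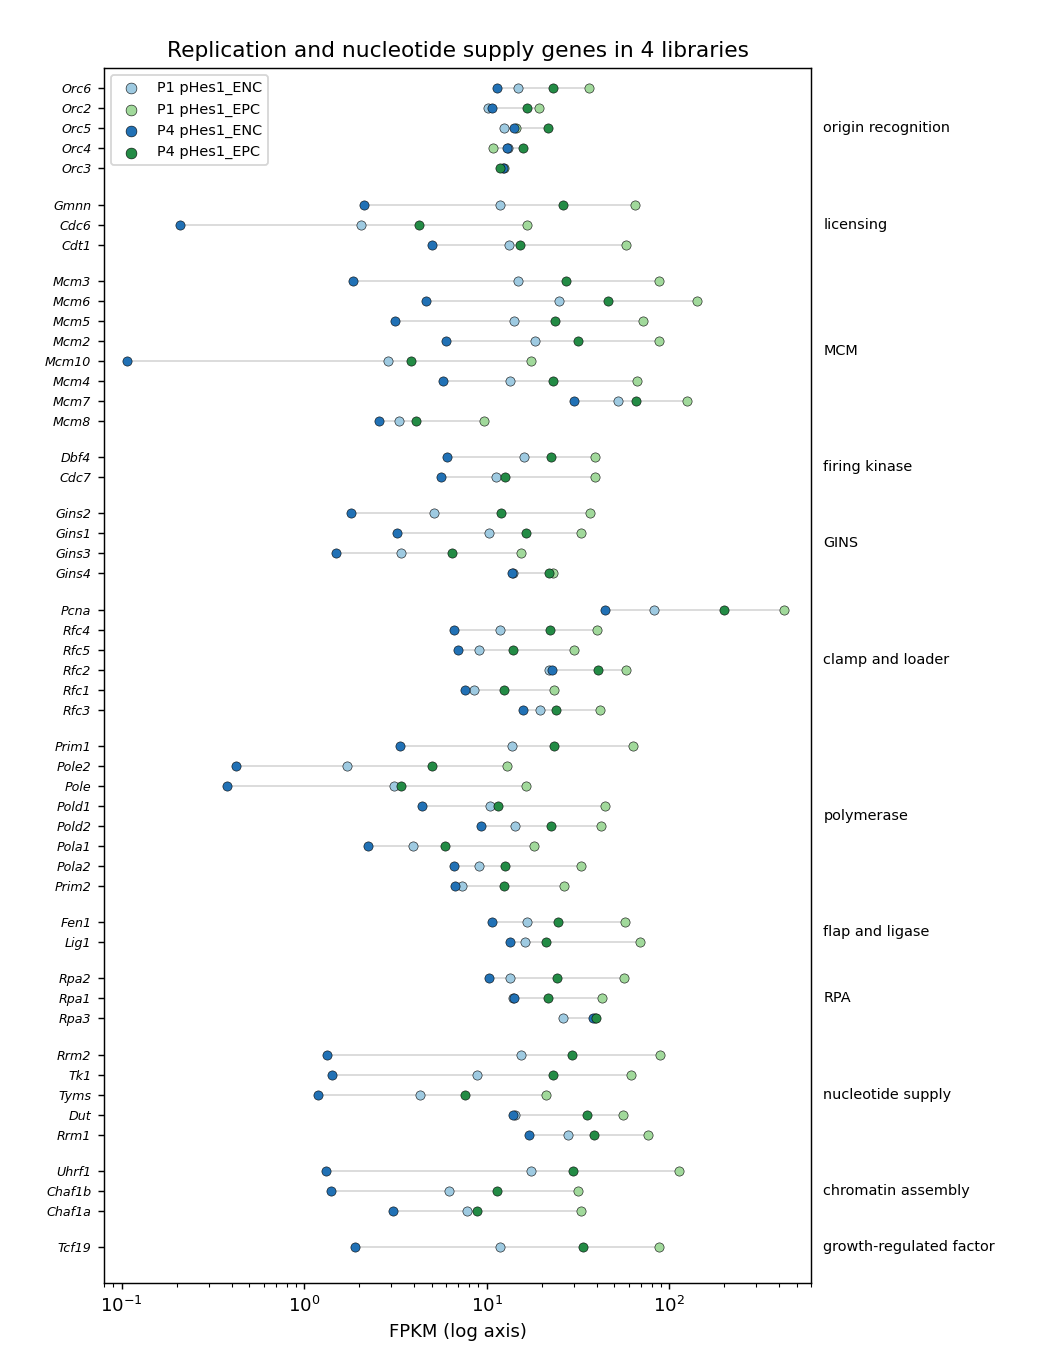
FPKM (log axis) of each replication gene in the 4 libraries, grouped by role, with 1 point for each library and a grey line from the lowest to the highest. P1 pHes1_EPC (light green) lies farthest right and P4 pHes1_ENC (dark blue) farthest left in 43 of 50 genes, while the points of Orc3, Orc4, Orc5 and Rpa3 lie close together. The failed estimate of Orc3 in P1 pHes1_ENC is not drawn.

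At P1, 45 of 50 genes were EPC-high, where 6.1% of all genes and 10.9% of expressed genes were. One of the 45 was Orc3, for which Cufflinks reported a failed estimate and an FPKM of 0 in P1 pHes1_ENCs. Without it the count was 44 of 49. At P4, 34 of 50 genes were EPC-high, beside 9.85% of all genes and 17.4% of expressed genes. None of the 50 was more than 2-fold lower in pHes1_EPCs at either age, where 6.79% of all genes were at P1 and 5.42% at P4 (11.1% and 9.94% of expressed genes). The median difference was 1.95 at P1 and 1.28 at P4, while the median of the expressed genes was 0.04 and 0.20. All 34 genes called at P4 were among those called at P1, and 4.61% of all genes were called at both ages. The genes called at P1 but not at P4 were Orc3, Orc6, Mcm8, Rfc1, Rfc2, Rfc3, Rfc5, Pola2, Prim2, Lig1 and Rpa1. Those called at neither age were Orc2, Orc4, Orc5, Gins4 and Rpa3.

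Counting error, as the intervals of Cufflinks give it, was small beside most of these differences. The 95% interval in pHes1_EPCs lay above that in pHes1_ENCs for 47 genes at P1 and for 48 genes at P4, beside 22.1% and 28.3% of all genes. At P1 the interval of Orc4 lay below, as for 21.8% of all genes, those of Orc5 overlapped, and Orc3 had none to compare. At P4 the intervals of Orc3 and Rpa3 overlapped. Nearest to the threshold, Rfc3 stood just inside at P1 with a difference of 1.06 and Orc2 just outside with 0.88, and at P4 Cdc7 stood inside with 1.03 and Orc6 outside with 0.96.

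The libraries themselves set limits to these comparisons. Their depth, as the interval widths imply it, was 0.936 to 1.00 times that of P1 pHes1_ENC. Hes1 itself had an FPKM of 105 in pHes1_EPCs and 16.6 in pHes1_ENCs at P1 and 93.5 and 3.59 at P4. Transcripts of other cell types moved with the fractions. The FPKM of 6 rod genes summed to 541.6 and 2733 in P1 and P4 pHes1_ENCs and to 33.5 and 553.4 in P1 and P4 pHes1_EPCs, and that of 6 red cell genes to 214.1 and 514.4 against 0.857 and 8.69. In pHes1_ENCs 5 of the 6 rod genes were more than 2-fold higher at P1 and 6 at P4, and so were 4 of the 6 red cell genes at P1 and 6 at P4. Among 7 progenitor genes 6 were EPC-high at each age, and among 9 Müller glia genes 7 were at P1 and 8 at P4. Of the neurons born early, 3 of 3 amacrine cell genes were higher in pHes1_ENCs by over 2-fold at P1, with a median difference of -3.45, and 2 were at P4. Their FPKM summed to 58.2 and 9.12 in P1 and P4 pHes1_ENCs and to 5.21 and 2.63 in P1 and P4 pHes1_EPCs, so they were also lower with age in pHes1_ENCs, with a median change of -2.48. Of 5 cone genes, 3 were over 2-fold higher in pHes1_ENCs at each age, with median differences of -1.68 and -1.04. Of 5 ganglion cell genes, 1 was so at P1 and none at P4, and 3 were more than 2-fold lower at P4 than at P1 in pHes1_ENCs and 2 in pHes1_EPCs. The FPKM of 5 microglia genes summed to 6.12 in pHes1_EPCs and 1.77 in pHes1_ENCs at P1 and to 6.01 and 4.71 at P4, and all 5 were higher in pHes1_EPCs at P1, 1 of them (Csf1r, 1.19) by more than 2-fold. The 5 bipolar cell genes summed to 5.25 to 9.86, with Vsx1 at 0 in P1 pHes1_ENCs and Grm6 at 0 in P1 pHes1_EPCs. Among them Cabp5 was lower in pHes1_EPCs at P1 (-1.28) and Trpm1 EPC-high at P4 (1.49). The 4 endothelial genes went different ways. Kdr was EPC-high at both ages (2.13 and 3.87) and made up most of their summed FPKM of 212.3 and 63.3 in P1 pHes1_EPCs and pHes1_ENCs and 193.1 and 14.7 at P4. Cldn5 was lower in pHes1_EPCs at P1 (-1.95), Pecam1 had an FPKM of at most 0.142 and Cdh5 of at most 0.071, with 0 in both P4 libraries. The part of this cell composition in the differences of the replication genes was not tested.

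Promoter sequences are shown because many of these genes differ together and are known E2F targets. RefSeq promoters of 300 bases (250 before the start of transcription and 50 after it) were at hand for 42 of the 50 genes, with 52 promoters in all. They are on GRCm38.p6, while all gene loci of the files are on mm9. Each is printed along the gene's own strand, with the letters that match an E2F-like motif in capitals. The motif was searched on both strands in 4 forms. The first form was TTCCCGC and the second was TTGGCGC. The third was TTCGCGC and the fourth was TTGCCGC. Uhrf1 (chr17:56303087-56303386, plus strand), Rrm2 (chr12:24708004-24708303, plus strand) and Tcf19 (chr17:35516775-35517074, minus strand) are shown because they had the largest differences at P4 among genes with a match, in 3 role groups. Orc3 (chr4:34614893-34615192, minus strand) is shown for a gene near no difference at P4. Mcm6 (chr1:128359656-128359955, minus strand) was added after its matches had been seen, because it holds the most matches of the 5.
Uhrf1: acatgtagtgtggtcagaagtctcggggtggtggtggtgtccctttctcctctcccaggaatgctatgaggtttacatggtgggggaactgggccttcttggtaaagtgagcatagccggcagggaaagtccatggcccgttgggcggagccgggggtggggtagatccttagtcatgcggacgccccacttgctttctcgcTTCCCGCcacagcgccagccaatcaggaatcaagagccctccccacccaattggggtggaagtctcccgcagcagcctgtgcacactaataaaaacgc
Rrm2: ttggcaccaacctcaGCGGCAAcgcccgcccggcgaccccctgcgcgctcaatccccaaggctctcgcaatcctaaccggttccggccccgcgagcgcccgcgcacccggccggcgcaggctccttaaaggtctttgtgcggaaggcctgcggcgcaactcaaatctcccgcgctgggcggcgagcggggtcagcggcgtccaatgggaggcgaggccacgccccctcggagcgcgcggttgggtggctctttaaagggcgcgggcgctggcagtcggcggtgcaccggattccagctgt
Tcf19: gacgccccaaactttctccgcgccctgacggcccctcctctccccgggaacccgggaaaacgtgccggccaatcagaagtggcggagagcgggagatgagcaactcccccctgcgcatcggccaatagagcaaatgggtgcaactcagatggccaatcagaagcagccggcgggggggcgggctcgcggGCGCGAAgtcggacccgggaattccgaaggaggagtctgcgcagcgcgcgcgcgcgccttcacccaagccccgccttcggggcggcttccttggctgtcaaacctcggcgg
Orc3: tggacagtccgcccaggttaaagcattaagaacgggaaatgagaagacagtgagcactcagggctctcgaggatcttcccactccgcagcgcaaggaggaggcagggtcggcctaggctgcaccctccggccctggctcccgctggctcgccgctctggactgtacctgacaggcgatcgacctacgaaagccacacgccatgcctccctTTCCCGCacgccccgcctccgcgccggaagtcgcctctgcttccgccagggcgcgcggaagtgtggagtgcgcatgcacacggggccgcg
Mcm6: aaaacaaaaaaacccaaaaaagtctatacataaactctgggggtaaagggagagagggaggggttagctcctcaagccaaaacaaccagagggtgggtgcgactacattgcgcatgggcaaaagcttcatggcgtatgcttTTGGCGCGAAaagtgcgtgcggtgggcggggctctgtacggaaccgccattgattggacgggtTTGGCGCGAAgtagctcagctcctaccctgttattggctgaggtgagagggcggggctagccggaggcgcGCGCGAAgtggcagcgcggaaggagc

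The match started at position -48 relative to the start in Uhrf1, at -235 in Rrm2, at -61 in Tcf19 and at -40 in Orc3. Mcm6 had 5 matches, which started at -109, -106, -46, -43 and 25. The first 4 of them formed 2 pairs in which a match on each strand shared bases, so that 2 runs of capitals are seen. Orc3 and Uhrf1 held the same letters at a like distance from the start in the promoters shown. Another promoter of Uhrf1, which is not shown, held a match that started at -184. At P4 the FPKM of Orc3 was 11.8 in pHes1_EPCs and 12.2 in pHes1_ENCs, and that of Uhrf1 was 29.7 and 1.32. The promoters shown were picked, and a link between letters and levels was not tested.

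An E2F-like match was present in 61.5% of the 52 promoters of replication genes, and in 18.5% of the promoters of expressed genes and 9.57% of all promoters in the table. By gene, 28 of 42 had one. Of the genes that were EPC-high at P4, 21 of 29 with a promoter held a match, and of the other genes 7 of 13 did. Of the 52 matches in these promoters, which can overlap where a gene has several, 16 started more than 100 bases before the start, 15 within 100 bases before it and 21 in the 50 bases after it. The letters CCAAT, which NF-Y binds, stood on either strand in 53.8% of promoters of replication genes, 38.9% of expressed genes and 37.4% of all promoters. In 3 genes these letters shared bases with an E2F-like match. The letters TTTGAA, the core of the cell cycle homology region (CHR) known from mitotic genes, stood in 13.5% of promoters of replication genes, 11.4% of expressed genes and 17.9% of all promoters. A list of 25 mitosis and kinetochore genes, with 22 promoters, showed another mixture, with E2F-like letters in 13.6%, CCAAT in 81.8% and TTTGAA in 72.7%. These matches describe letters in a window and were not tested as binding sites.

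**Figure D2:**
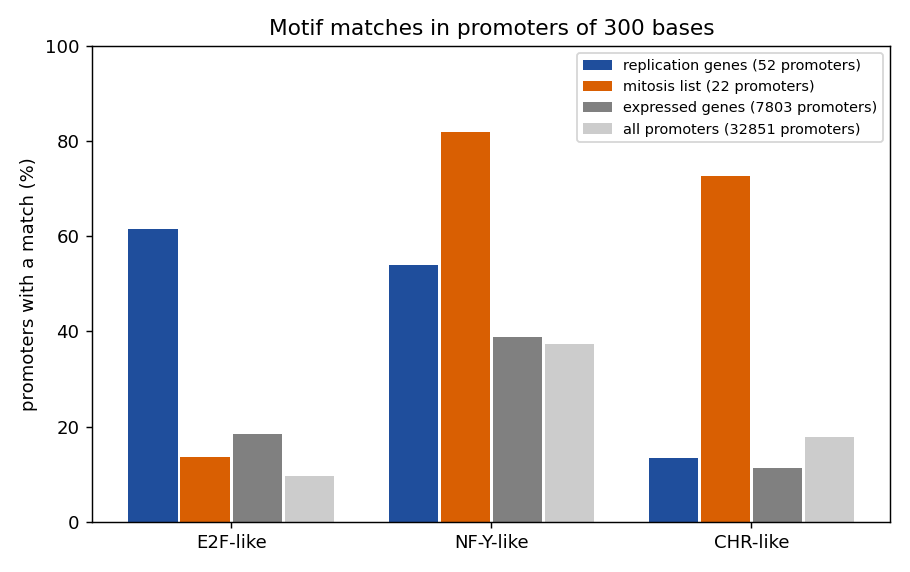
Share of promoters of 300 bases (percent, y axis) with a match to the E2F-like, NF-Y-like or CHR-like letters, for replication genes, a list of mitosis genes, expressed genes and all promoters of the table. E2F-like letters were in 61.5% of replication gene promoters and 13.6% of mitosis gene promoters, and CHR-like letters in 13.5% and 72.7%.

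Among the 12 role groups, origin recognition had the lowest median difference at P1, 0.54 without Orc3 and 0.88 with its failed estimate. At P4 the median was 0.60 without Orc3 and 0.59 with it. ORC binds origins and stays there as the platform for loading the helicase. Orc2 had an FPKM of 19.5 in pHes1_EPCs and 10.1 in pHes1_ENCs at P1 and 16.7 and 10.6 at P4, and its differences were 0.88 at P1 and 0.60 at P4. Orc4 was the one gene with a lower level in pHes1_EPCs at P1 and a higher one at P4, with an FPKM of 10.8 in pHes1_EPCs and 13.0 in pHes1_ENCs at P1 and 15.9 and 12.8 at P4. Both differences of Orc4 were below the threshold, at -0.24 and 0.29, and its line overlaps that of Acvr2a. Orc5 had an FPKM of 14.4 at P1 and 21.7 at P4 in pHes1_EPCs and 12.5 and 14.0 in pHes1_ENCs. Its 2 pHes1_ENC values and its P1 pHes1_EPC value lay close together, and P4 pHes1_EPC was highest. The line of Orc5 overlaps that of Gm15421. Orc3 was at 12.5 in P1 pHes1_EPCs, 12.2 in P4 pHes1_ENCs and 11.8 in P4 pHes1_EPCs, so the only large difference listed for it, 3.75 at P1, came from the failed estimate. Its line overlaps that of Akirin2, for which the estimate failed in the same library. Orc6, the subunit bound most loosely to the others, stood apart with an FPKM of 36.6 in pHes1_EPCs and 14.8 in pHes1_ENCs at P1 and 23.04 and 11.4 at P4, with differences of 1.25 and 0.96. Across the complex the highest subunit was 1.32 times the lowest in P4 pHes1_ENCs and 3.37 times in P1 pHes1_EPCs, where Orc6 was highest. Orc1, which is not among the 50 genes and whose protein is known to vary through the cycle, was scarcer, with an FPKM of 1.11 and 5.02 in P1 pHes1_ENCs and pHes1_EPCs and 0.168 and 1.40 at P4.

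The licensing genes Cdc6, Cdt1 and Gmnn were EPC-high at both ages. Cdc6, the ATPase that loads the helicase, had an FPKM of 16.6 in pHes1_EPCs and 2.04 in pHes1_ENCs at P1 and 4.23 and 0.209 at P4. The P4 pHes1_ENC value is so low that its interval corresponds to about 21 reads, and the ratio at P4 was 20.3 (12.8 to 39.4) while the difference was 2.11. Cdt1, the partner of CDC6 in loading, had an FPKM of 57.9 in pHes1_EPCs and 13.2 in pHes1_ENCs at P1 and 15.3 and 5.02 at P4, with differences of 2.05 and 1.44. Gmnn, which encodes the CDT1 inhibitor geminin, had an FPKM of 65.3 in pHes1_EPCs and 11.8 in pHes1_ENCs at P1 and 26.3 and 2.13 at P4, with differences of 2.37 and 3.12, the larger one at P4. The ratio of Cdt1 to Gmnn FPKM was 0.888 in P1 pHes1_EPCs, 1.12 in P1 pHes1_ENCs, 0.582 in P4 pHes1_EPCs and 2.36 in P4 pHes1_ENCs.

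All 6 subunits of the MCM2-7 helicase, the ring that unwinds DNA at the fork, were EPC-high at both ages. Mcm3 had the largest difference of the helicase at P4, with an FPKM of 87.9 in pHes1_EPCs and 14.9 in pHes1_ENCs at P1 and 27.1 and 1.86 at P4, with differences of 2.49 and 3.29. Mcm6 followed with an FPKM of 141 at P1 and 45.9 at P4 in pHes1_EPCs and 24.98 and 4.67 in pHes1_ENCs, with differences of 2.45 and 3.05. Mcm5 had an FPKM of 71.7 in pHes1_EPCs and 14.1 in pHes1_ENCs at P1 and 23.7 and 3.14 at P4, with differences of 2.27 and 2.58. For these 3 genes the P4 difference exceeded the P1 difference. Mcm2 had an FPKM of 87.4 at P1 and 31.6 at P4 in pHes1_EPCs and 18.5 and 5.98 in pHes1_ENCs, with differences of 2.18 and 2.23. Mcm4 had an FPKM of 66.8 at P1 and 23.03 at P4 in pHes1_EPCs and 13.4 and 5.78 in pHes1_ENCs, with differences of 2.24 and 1.83. Mcm7 was the subunit with the smallest differences, 1.25 and 1.09, at an FPKM of 125 in pHes1_EPCs and 52.3 in pHes1_ENCs at P1 and 65.5 and 30.3 at P4. Its locus (chr5:138605817-138613090 on mm9) also carries the microRNAs Mir106b, Mir25 and Mir93, whose lines overlap that of Mcm7.

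The 6 MCM2-7 proteins form a ring with 1 copy of each. Their transcripts were near each other in pHes1_EPCs and spread out in P4 pHes1_ENCs, mostly through Mcm7. The highest subunit was 2.12 times the lowest in P1 pHes1_EPCs, 2.84 times in P4 pHes1_EPCs, 3.91 times in P1 pHes1_ENCs and 16.3 times in P4 pHes1_ENCs. In that last library Mcm7 was highest at 30.3 FPKM, while the other subunits ran from 1.86 (Mcm3) to 5.98 (Mcm2). In P1 pHes1_ENCs Mcm7 was at 52.3 and the others ran from 13.4 (Mcm4) to 24.98 (Mcm6). Whether the overlap of Mcm7 with the microRNA lines affects its level was not tested. For GINS, which joins the ring at the fork, the highest subunit was 2.39 times the lowest in P1 pHes1_EPCs and 3.40 times in P4 pHes1_EPCs. It was 4.07 times the lowest in P1 pHes1_ENCs and 9.18 times in P4 pHes1_ENCs. The spread in P4 pHes1_ENCs rested mostly on Gins4, at 13.8 FPKM, while Gins1, Gins2 and Gins3 were at 3.21, 1.802 and 1.499. The clamp loader RFC ran from 2.46 to 3.45 and polymerase alpha-primase from 3.02 to 3.96 over the 4 libraries. RPA was at 1.43 in P1 pHes1_EPCs and 3.73 in P4 pHes1_ENCs.

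**Figure D3:**
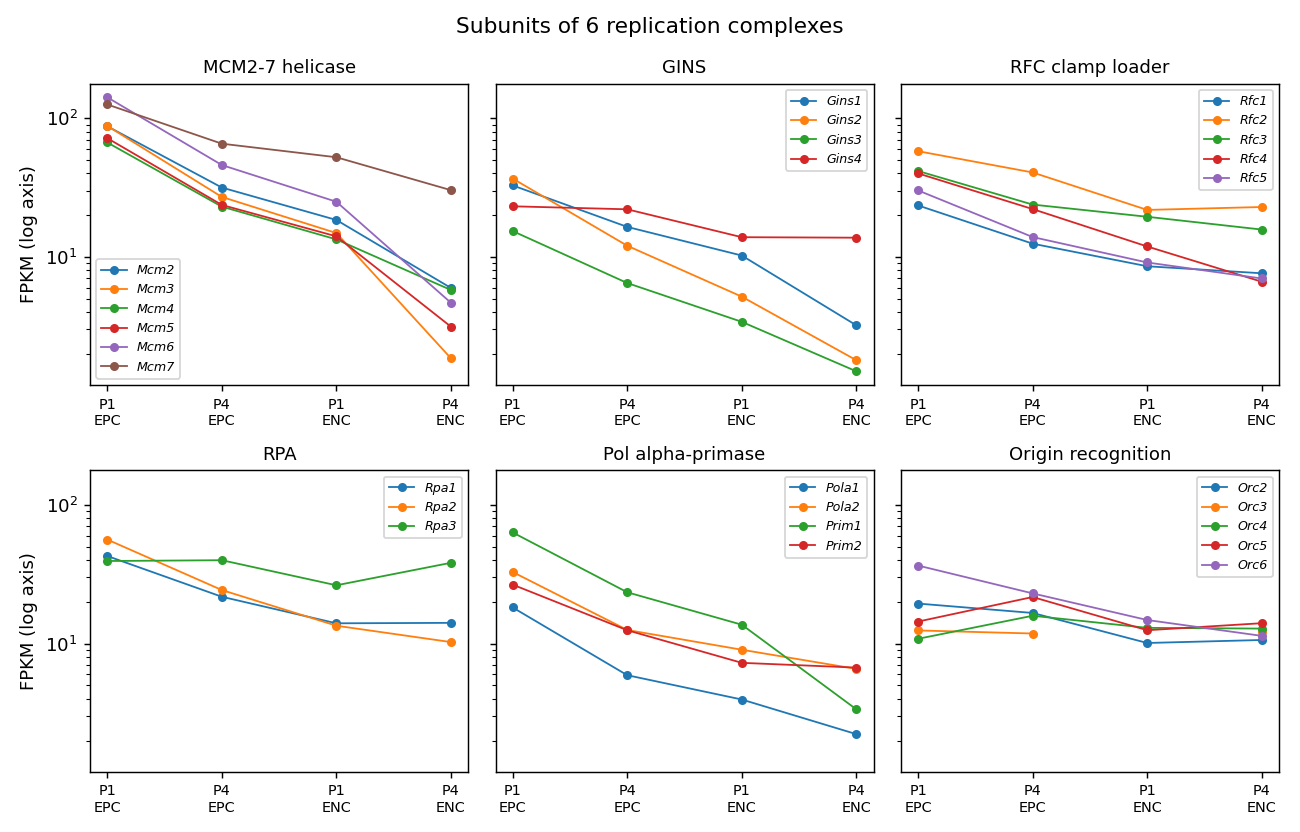
FPKM (log axis) of the subunits of 6 replication complexes in the 4 libraries, ordered from P1 pHes1_EPC to P4 pHes1_ENC, with 1 line for each gene. The lines of MCM2-7 lie within 2.12-fold in P1 pHes1_EPC and fan out to 16.3-fold in P4 pHes1_ENC, where Mcm7 stands apart. The lines of Orc2, Orc4, Orc5, Rfc2, Rpa1 and Rpa3 do not descend at every step in this order. The failed estimate of Orc3 in P1 pHes1_ENC is left out, which breaks its line.

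The other MCM genes have separate roles. Mcm10, which links the helicase to polymerase alpha, had an FPKM of 17.5 in pHes1_EPCs and 2.88 in pHes1_ENCs at P1 and 3.87 and 0.107 at P4. In P4 pHes1_ENCs this was the lowest value of the 50 genes, with an interval that corresponds to about 12 reads, and the ratio at P4 was 36.1 (19.7 to 95.8). Mcm8, which acts in recombination repair together with MCM9, was the least abundant of the 50 in P1 pHes1_EPCs. Its FPKM was 9.70 at P1 and 4.09 at P4 in pHes1_EPCs and 3.31 and 2.56 in pHes1_ENCs, and its differences were 1.31 and 0.51.

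The kinase that fires licensed origins consists of CDC7 and its activator DBF4, and both genes were EPC-high at both ages. Dbf4 had an FPKM of 39.3 in pHes1_EPCs and 16.1 in pHes1_ENCs at P1 and 22.5 and 6.04 at P4, with differences of 1.24 and 1.74. Cdc7 had an FPKM of 39.3 at P1 and 12.6 at P4 in pHes1_EPCs and 11.3 and 5.64 in pHes1_ENCs, with differences of 1.72 and 1.03. Thus both had the same level in P1 pHes1_EPCs, and Dbf4 was the higher one in P4 pHes1_EPCs.

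Of the 4 GINS genes, 3 were EPC-high at both ages. Gins2 had an FPKM of 36.7 at P1 and 12.0 at P4 in pHes1_EPCs and 5.17 and 1.802 in pHes1_ENCs, with differences of 2.61 and 2.22, although its line overlaps that of Gse1. Gins1 had an FPKM of 32.8 in pHes1_EPCs and 10.2 in pHes1_ENCs at P1 and 16.5 and 3.21 at P4, with differences of 1.59 and 2.05. Gins3 was the least abundant of the 4 in every library, at 15.4 in pHes1_EPCs and 3.41 in pHes1_ENCs at P1 and 6.49 and 1.499 at P4. Gins4 was called at neither age. Its FPKM was 23.2 at P1 and 22.0 at P4 in pHes1_EPCs and 13.9 and 13.8 in pHes1_ENCs, so that each fraction had nearly the same level at P1 and at P4, and its differences were 0.70 and 0.64.

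Pcna, the sliding clamp, had the highest FPKM of the 50 genes in every library. Its FPKM was 428 in pHes1_EPCs and 82.9 in pHes1_ENCs at P1 and 201 and 44.5 at P4, and its differences were 2.35 and 2.15. The genome carries pseudogenes named after Pcna, and reads could align at up to 50 positions, so reads of these copies cannot be told apart from its own here. The genes of the clamp loader differed less than the clamp. All 5 Rfc genes were EPC-high at P1, and at P4 only Rfc4 was. Rfc4 had an FPKM of 40.0 at P1 and 22.1 at P4 in pHes1_EPCs and 11.9 and 6.63 in pHes1_ENCs, with differences of 1.67 and 1.60, and its line overlaps that of Eif4a2. Rfc5 had an FPKM of 30.1 in pHes1_EPCs and 9.12 in pHes1_ENCs at P1 and 13.9 and 6.99 at P4, with differences of 1.62 and 0.90. Rfc1, which encodes the large subunit, had an FPKM of 23.5 in pHes1_EPCs and 8.57 in pHes1_ENCs at P1 and 12.5 and 7.63 at P4, with differences of 1.36 and 0.64. Rfc2 and Rfc3 were the more abundant ones. Rfc2 had an FPKM of 57.8 at P1 and 40.6 at P4 in pHes1_EPCs and 21.8 and 22.9 in pHes1_ENCs, and its intervals in the 2 pHes1_ENC libraries overlapped. Rfc3 had an FPKM of 41.6 in pHes1_EPCs and 19.5 in pHes1_ENCs at P1 and 23.8 and 15.7 at P4, with the smallest P4 difference of this group, 0.57.

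Among the polymerase genes, all 8 were EPC-high at P1 and 6 of 8 at P4. Prim1, the catalytic subunit of primase, had the largest difference at P4, with an FPKM of 63.3 at P1 and 23.5 at P4 in pHes1_EPCs and 13.7 and 3.37 in pHes1_ENCs, with differences of 2.13 and 2.49. Its partner Prim2 had an FPKM of 26.6 in pHes1_EPCs and 7.28 in pHes1_ENCs at P1 and 12.5 and 6.73 at P4, with the smallest P4 difference of the group, 0.80, after 1.74 at P1. The ratio of Prim2 to Prim1 was accordingly 0.421 in P1 pHes1_EPCs, 0.531 in P1 pHes1_ENCs, 0.533 in P4 pHes1_EPCs and 2.00 in P4 pHes1_ENCs. Polymerase alpha, which extends the primers, is encoded in part by Pola1, which had an FPKM of 18.2 at P1 and 5.93 at P4 in pHes1_EPCs and 3.96 and 2.23 in pHes1_ENCs. Its accessory subunit Pola2 had an FPKM of 32.8 in pHes1_EPCs and 9.04 in pHes1_ENCs at P1 and 12.6 and 6.58 at P4. Pola1 was EPC-high at both ages, and Pola2 only at P1. Polymerase delta copies the lagging strand, and its catalytic subunit Pold1 had an FPKM of 44.4 in pHes1_EPCs and 10.4 in pHes1_ENCs at P1 and 11.6 and 4.44 at P4, with differences of 2.00 and 1.21. Pold2, its second subunit, had an FPKM of 42.2 at P1 and 22.6 at P4 in pHes1_EPCs and 14.4 and 9.35 in pHes1_ENCs, and its line overlaps that of Aebp1. Polymerase epsilon copies the leading strand and was low in P4 pHes1_ENCs. Its catalytic subunit Pole had an FPKM of 16.3 in pHes1_EPCs and 3.104 in pHes1_ENCs at P1 and 3.40 and 0.380 at P4, with a ratio at P4 of 8.95 (6.58 to 13.0). Pole2 had an FPKM of 12.9 in pHes1_EPCs and 1.71 in pHes1_ENCs at P1 and 5.004 and 0.421 at P4, with a ratio at P4 of 11.9 (6.45 to 24.4). With the added 1, the differences of both at P4 were 1.67 and 2.08, smaller than the 2.08 and 2.36 at P1. Their ratios at P1 were 5.26 (4.55 to 6.06) and 7.56 (4.90 to 11.0), lower than at P4, and the ranges of the 2 ages overlapped for Pole2 but not for Pole.

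The genes that finish the lagging strand had larger differences at P1 than at P4. Fen1, the nuclease that removes primer flaps, had an FPKM of 57.5 in pHes1_EPCs and 16.7 in pHes1_ENCs at P1 and 24.7 and 10.7 at P4, with differences of 1.72 and 1.13. Lig1, the ligase that seals the fragments, had an FPKM of 68.9 at P1 and 21.1 at P4 in pHes1_EPCs and 16.2 and 13.4 in pHes1_ENCs. Its difference was 2.02 at P1 and 0.62 at P4, where the pHes1_EPC level was 0.307 times and the pHes1_ENC level 0.823 times that of P1. The line of Lig1 overlaps that of 6330408A02Rik.

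RPA coats single-stranded DNA in replication and in repair. Rpa2 had an FPKM of 56.3 at P1 and 24.4 at P4 in pHes1_EPCs and 13.5 and 10.3 in pHes1_ENCs, and it was EPC-high at both ages. Rpa1, the large subunit, had an FPKM of 42.8 in pHes1_EPCs and 14.0 in pHes1_ENCs at P1 and 21.8 and 14.1 at P4, nearly equal in the 2 pHes1_ENC libraries, and was called only at P1. Rpa3, the small subunit, had an FPKM of 39.4 in pHes1_EPCs and 26.3 in pHes1_ENCs at P1 and 40.0 and 38.3 at P4. It was thus lowest in P1 pHes1_ENCs and nearly the same in the other 3 libraries, with a P4 ratio of 1.04 (0.821 to 1.32). Its small P4 difference of 0.06 changed sign under each of 3 other scalings.

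All 5 nucleotide supply genes were EPC-high at both ages. Rrm2, the small subunit of ribonucleotide reductase and the one known to be limited to S phase, had an FPKM of 89.0 at P1 and 29.3 at P4 in pHes1_EPCs and 15.3 and 1.33 in pHes1_ENCs. Its differences were 2.46 at P1 and 3.70 at P4, a ratio of 5.80 (4.92 to 6.497) and 22.0 (15.2 to 29.99). Rrm1, the large subunit, had an FPKM of 76.1 in pHes1_EPCs and 27.8 in pHes1_ENCs at P1 and 38.6 and 17.0 at P4, with differences of 1.42 and 1.14. The level of Rrm1 over Rrm2 was 0.855 in P1 pHes1_EPCs, 1.32 in P4 pHes1_EPCs, 1.81 in P1 pHes1_ENCs and 12.8 in P4 pHes1_ENCs. Rrm2b, the alternative small subunit known from resting cells and from DNA damage, is not among the 50 genes. Its FPKM was 3.42, 3.08, 4.03 and 4.995 in P1 pHes1_ENCs, P1 pHes1_EPCs, P4 pHes1_ENCs and P4 pHes1_EPCs, so that P4 pHes1_ENC was the one library with more Rrm2b than Rrm2, by 3.03 times.

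The genes of thymidine nucleotide supply followed Rrm2 to different extents. Tk1, the salvage kinase for thymidine, had an FPKM of 61.4 in pHes1_EPCs and 8.86 in pHes1_ENCs at P1 and 23.04 and 1.41 at P4, with differences of 2.66 and 3.32, with an overlap of its line with that of Afmid. Tyms, which makes thymidylate from deoxyuridylate, had an FPKM of 21.1 at P1 and 7.57 at P4 in pHes1_EPCs and 4.30 and 1.19 in pHes1_ENCs, with differences of 2.06 and 1.97; a pseudogene is named after it. Dut, the enzyme that removes dUTP before it can enter DNA, had an FPKM of 55.6 at P1 and 35.5 at P4 in pHes1_EPCs and 14.2 and 14.0 in pHes1_ENCs. Its 2 pHes1_ENC values did not differ beyond their intervals, so that Dut stood beside Rrm1 as a gene that was still above an FPKM of 10 in P4 pHes1_ENCs.

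Genes that act behind the fork were EPC-high at both ages. Uhrf1, which reads hemimethylated DNA and brings the maintenance methyltransferase to it, had an FPKM of 113 in pHes1_EPCs and 17.6 in pHes1_ENCs at P1 and 29.7 and 1.32 at P4. Its differences were 2.62 and 3.73, the latter the largest of the 50 genes at P4 on the log2(FPKM + 1) scale. The assembly factor CAF-1 places histones on new DNA, and its subunit Chaf1b had an FPKM of 31.5 at P1 and 11.4 at P4 in pHes1_EPCs and 6.23 and 1.40 in pHes1_ENCs. The large subunit Chaf1a had an FPKM of 32.9 in pHes1_EPCs and 7.80 in pHes1_ENCs at P1 and 8.82 and 3.06 at P4. Chaf1b had a larger difference at P4 than at P1, 2.37 against 2.17, and Chaf1a a smaller one, 1.27 against 1.95. Tcf19, a growth-regulated nuclear factor whose transcript is known to appear at the start of S phase, had an FPKM of 87.8 at P1 and 33.5 at P4 in pHes1_EPCs and 11.8 and 1.89 in pHes1_ENCs, with differences of 2.79 and 3.58.

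With age, the replication genes were lower at P4 than at P1 in both fractions, but by unequal amounts. These comparisons use the same 4 libraries as those above and are not independent of them. In pHes1_ENCs 22 of 50 genes were more than 2-fold lower at P4, beside 5.94% of all genes and 9.31% of expressed genes. The median there was -0.85 (-0.88 without Orc3), beside 0.04 for expressed genes. In pHes1_EPCs 32 of 50 were more than 2-fold lower, beside 2.57% and 4.34%. The median there was -1.20 (-1.21 without Orc3), beside 0.24. Both fractions shared 20 of these genes, 12 were called in pHes1_EPCs only, 2 in pHes1_ENCs only (Dbf4 and Gins1) and 16 in neither. This split depends in part on the added 1. By the ratio of FPKM alone, Pole2 and Gins3, called in pHes1_EPCs only, were 4.05 and 2.27 times lower in pHes1_ENCs too. The shares of all genes in these classes were not computed. By intervals, 36 genes were lower at P4 in pHes1_ENCs and 45 in pHes1_EPCs, beside 21.1% and 14.8% of all genes.

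The range of these changes was wider in pHes1_ENCs. On the log2(FPKM + 1) scale Uhrf1 changed most there, by -3.00, from 17.6 to 1.32 FPKM. Rrm2 followed with -2.81, Mcm3 with -2.47 and Mcm6 with -2.20. By the ratio of FPKM alone, without the added 1, the order was another. Mcm10, at 0.107 FPKM in P4 pHes1_ENCs, was 26.9 times lower at P4, Uhrf1 13.3 times, Rrm2 11.5 times, Cdc6 9.79 times and Pole 8.17 times, ahead of Mcm3 with 7.99 times. At the other end of the changes were Rpa3 with 0.52 and Orc5 with 0.16, leaving out Orc3. Close to 0 were Rpa1 with 0.01, Dut with -0.019, Gins4 with -0.011 and Rfc2 with 0.067, and for these 4 genes the intervals of the 2 ages overlapped and the sign changed with the scaling. Rpa3 was the only gene whose interval was higher at P4 in pHes1_ENCs, as it was for 16.9% of all genes. In pHes1_EPCs this held for Orc4 and Orc5, beside 27% of all genes. In pHes1_EPCs the change ran from -1.98 for Pole, -1.93 for Mcm10 and -1.89 for Uhrf1 to 0.56 for Orc5 and 0.51 for Orc4. Lig1 and Rpa1 were examples of genes that were lower in pHes1_EPCs with little change in pHes1_ENCs, at -1.66 against -0.26 and -0.94 against 0.01. Gmnn, Tk1, Rrm2 and Uhrf1 were lower by more in pHes1_ENCs, at -2.03, -2.03, -2.81 and -3.00 against -1.28, -1.38, -1.57 and -1.89.

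**Figure D4:**
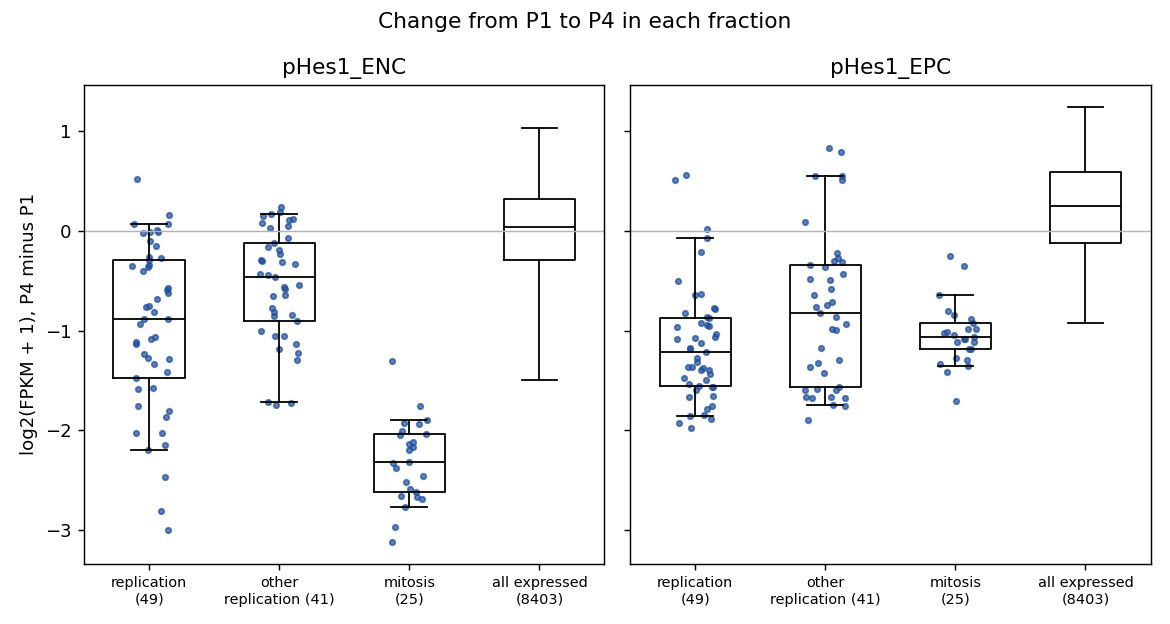
Change from P1 to P4 in log2(FPKM + 1) in pHes1_ENCs (left) and pHes1_EPCs (right), for 49 replication genes (without Orc3), 41 other replication genes, 25 mitosis genes and 8403 expressed genes. Points are genes, boxes hold the median and quartiles, and whiskers reach the 5th and 95th percentiles. The median of the mitosis genes was -2.32 in pHes1_ENCs and -1.06 in pHes1_EPCs, and that of the replication genes -0.88 and -1.21.

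The differences at the 2 ages ranked the genes alike. Across the 49 genes without Orc3, Pearson's r between the P1 and the P4 difference was 0.79 and Spearman's rho 0.87. The 2 differences share no library, but genes are not independent replicates, and low FPKM pulls both toward 0. The P4 difference exceeded the P1 difference in 15 of 50 replication genes, beside 51% of all genes and 64.6% of expressed genes. Of the 25 mitosis and kinetochore genes, 25 had a larger difference at P4. Those genes were EPC-high at both ages in 25 of 25 cases, and the median was 1.72 (P1) and 2.93 (P4). Without the added 1, 20 of the 49 genes without Orc3 had a larger difference at P4, and the share over all genes was not computed in this way.

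**Figure D5:**
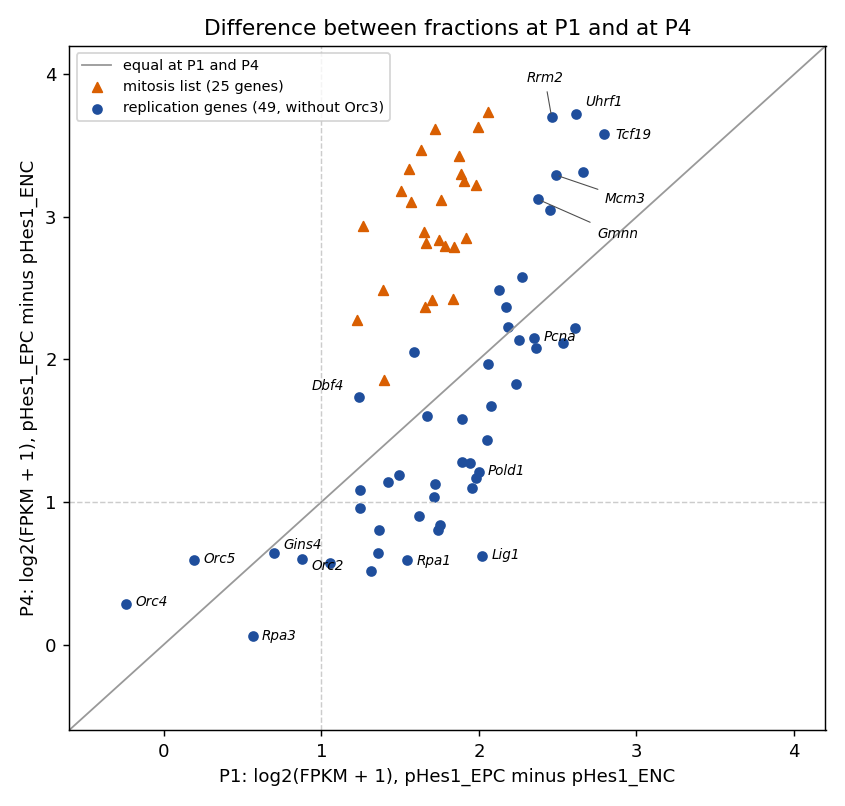
Difference between fractions in log2(FPKM + 1) at P1 (x axis) and P4 (y axis) for 49 replication genes (circles) and 25 mitosis genes (triangles). Dashed lines mark a difference of 1 and the solid line equal differences. All 25 triangles lie above the solid line, while most circles lie below it, with Uhrf1, Rrm2 and Tcf19 at the top right and Orc4, Orc5 and Rpa3 at the lower left.

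Further genes of the pathway were set beside the 50 from a list written for this comparison, of which 41 of 42 were measured. The list holds fork protection, checkpoint, primer removal and nucleotide metabolism genes. Of these, 28 were EPC-high at P1 and 20 at P4, none was more than 2-fold lower at either age, and the medians were 1.23 and 0.96. From P1 to P4, 10 were more than 2-fold lower in pHes1_ENCs and 16 in pHes1_EPCs, with medians of -0.47 and -0.82. The largest P4 difference was that of Nme2, a nucleoside diphosphate kinase, with an FPKM of 132.7 in pHes1_EPCs and 56.1 in pHes1_ENCs at P1 and 194.2 and 31.4 at P4. Nme2 was highest in P4 pHes1_EPCs, unlike the 43 replication genes that were highest in P1 pHes1_EPCs and lowest in P4 pHes1_ENCs, and it shares long stretches of sequence with Nme1, so its level is uncertain. Hells, a chromatin remodeler of DNA methylation, had P1 levels of 36.98 FPKM in pHes1_EPCs and 6.61 in pHes1_ENCs and P4 levels of 11.6 and 1.32. The histone chaperone Asf1b had P1 levels of 37.2 and 8.54 and P4 levels of 13.9 and 1.88. The smallest P4 differences were those of Pold3 (-0.10), Mcm9 (-0.00053) and Rif1 (0.05), with P1 differences of 1.01, 0.93 and 0.92.

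Regulators upstream of these genes were mixed. Of 12 regulators of the G1 phase, 8 were EPC-high at P1 and 6 at P4, and 1 was more than 2-fold lower at P1. The last was the cell cycle inhibitor Cdkn1c, with an FPKM of 8.80 in pHes1_EPCs and 19.8 in pHes1_ENCs at P1 and 55.1 and 21.8 at P4. Its difference was -1.09 at P1 and 1.30 at P4, so it was among the 6 EPC-high genes at P4. Of 8 E2F genes, 6 were EPC-high at P1 and 3 at P4, with medians of 1.29 and 0.91. E2f1, an activator of replication genes, had an FPKM of 103 in pHes1_EPCs and 27.4 in pHes1_ENCs at P1 and 72.0 and 5.60 at P4. Its P4 difference of 3.47 was the largest of the 8. E2f7 (2.01) and E2f8 (2.71) were also EPC-high at P4. The P4 differences of E2f2 (0.34), E2f3 (-0.03), E2f4 (0.39), E2f5 (0.98) and E2f6 (0.84) were below the threshold.

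By position, 10 of the 50 genes lie on chromosome 5, beside 5.66% of all genes and 6.41% of expressed genes. They are Orc5, Mcm7, Cdc7, Dbf4, Rfc1, Rfc2, Rfc3, Rfc5, Pole and Tyms, so that 4 of the 5 clamp loader genes are on this chromosome. Their loci on mm9 run from Dbf4 (chr5:8396969-8422716) to Rfc3 (chr5:152445399-152453783). Of these 10, 9 were EPC-high at P1, all but Orc5, and 5 at P4, namely Mcm7, Cdc7, Dbf4, Pole and Tyms. In all, 9 of the 50 genes overlap the line of another gene. The protocol kept no strand, so reads from genes on opposite strands cannot be told apart there.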

How the data were processed

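RNA of pHes1_EPCs and pHes1_ENCs, isolated from retinas at P1 and P4, was measured in 4 libraries. The authors read single ends of 36 bases, aligned them to mm9 with TopHat2 2.0.8b, with up to 50 positions for each read, and deposited gene FPKM from Cufflinks 2.1.1 with 95% intervals (versions from the submitters' processing notes). From the 23021 lines, 794 lines of small RNAs were left out, the highest line was kept for each symbol, and 21830 genes remained. Differences of log2(FPKM + 1), ratios and counts were computed with Python 3.11.15, numpy 2.4.6, pandas 2.3.3 and matplotlib 3.10.9. The 2-fold rule was tried on simulated data with large planted changes and counting error only. That trial cannot speak to the spread between animals or sorts. No test between groups was run, because each group had 1 library. The genes and lists were chosen with earlier results of these data known. All 50 genes could be named. In each role group those with the largest and smallest P4 difference and the highest P4 pHes1_EPC level were given in every library, and of the other replication genes those with the 3 largest and 3 smallest P4 differences at an FPKM of at least 5 in 1 library were named. Orc1, Rrm2b, E2f1, Cdkn1c, single cell type markers, genes with opposite signs and the Mcm6 promoter were picked after their values were seen. Alternatives were other pseudocounts, scalings, filters and ways to treat several lines. Read counts, read alignments and the other assays of the study were not used here.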

Additional observations from a re-analysis of the deposited data

Results flagged for a closer look

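For some genes the difference between the fractions had opposite signs at the 2 ages, and with 1 library in each group this was not tested. The difference of log2(FPKM + 1), pHes1_EPC minus pHes1_ENC, of Orc4 was -0.24 at P1 and 0.29 at P4. For Orc3 it was 3.75 and -0.043, the first of which rests on the failed estimate in P1 pHes1_ENCs. Among the other replication genes it was 0.93 and -0.00053 for Mcm9, the partner of MCM8, whose P4 levels were 3.26 FPKM in both fractions, so that its P4 value is no difference. It was 1.01 and -0.10 for the polymerase delta subunit Pold3. It was -0.20 and 0.47 for Pold4, the small subunit of that polymerase. It was -0.11 and 0.25 for Rrm2b and -0.48 and 0.097 for Tk2, which supply nucleotides outside S phase. For the cell cycle inhibitor Cdkn1c it was -1.09 and 1.30, past the 2-fold threshold both times.

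Some genes changed from P1 to P4 in opposite directions in the 2 fractions, which was not tested either. The change was 0.066 in pHes1_ENCs and -0.21 in pHes1_EPCs for Orc2, -0.016 and 0.51 for Orc4, 0.067 and -0.50 for Rfc2 and 0.010 and -0.94 for Rpa1. For Orc3 it was 3.73 and -0.068, again with the failed estimate. In pHes1_ENCs the intervals of the 2 ages overlapped for Orc2, Orc4, Rfc2 and Rpa1. Among the other replication genes the change was -0.58 and 0.83 for Nme1, -0.82 and 0.55 for Nme2, 0.24 and -0.86 for Pold3, 0.11 and -0.82 for Mcm9 and 0.17 and -0.36 for Rnaseh2a. Closer to 0 in pHes1_ENCs were Pole3 with 0.024 and -0.59, Dck with 0.051 and -0.49, Samhd1 with 0.078 and -0.48 and Tk2 with -0.069 and 0.51.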

How the results depend on the processing

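Of 86 alternatives, 73 left the result within its margin (0.1 for a median on the log2 scale, 1.5 times for a count), 13 moved it and 0 reversed it. Only a median could be called reversed, so this tally says little about the counts. Asking for an FPKM of at least 1 and summing the lines of a symbol left every value unchanged. Asking for status OK and leaving out Orc3 kept the same 49 genes, so the alternatives are not independent. The P1 median difference of 1.95 became 2.07 with a pseudocount of 0.1 and 2.08 with none, and the P4 median of 1.28 became 1.43 and 1.47. Scaling to 1 common total, by median of ratios and by quantiles gave a P4 median of 1.03, 1.09 and 1.06, with 26, 27 and 26 EPC-high genes. The same scalings gave a change in pHes1_EPCs of -1.52, -1.36 and -1.43, with 41, 38 and 39 genes lower. As deposited, all expressed genes had a median of 0.20 in the P4 comparison, and -0.11 at a common total. The change in pHes1_ENCs of -0.85 became -0.996 both without a pseudocount and at a common total, and its count of 22 became 36 when intervals that do not overlap were counted. Changes near 0 in pHes1_ENCs changed sign, in Orc2, Rfc2 and Rpa1 (-0.055, -0.059 and -0.11 at a common total) and in Orc4, Gins4 and Dut (0.0050, 0.011 and 0.0029 by median of ratios). By quantiles the change of Mcm8 there went from -0.27 to 0.088 and that of Prim2 from -0.10 to 0.023. The P4 difference of Rpa3 became -0.22 at a common total, -0.14 by median of ratios and -0.11 by quantiles. The count of genes with a larger difference at P4 lay between 11 and 20. That count and the values without Orc3 were added after seeing the data. No paired analysis was possible because each group had 1 library and no replicate numbers to share, and a fit of age and fraction together, with 1 residual degree of freedom, was not run. Counting error limits the lowest values, such as Mcm10, Cdc6, Pole and Pole2 in P4 pHes1_ENCs, and the spread between animals or sorts is unknown.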
